A study of Mus musculus with 10 samples.

Results

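The contactins and the contactin-associated proteins are 2 small families of neuronal cell adhesion molecules, and 10 of their genes are described here: Cntn1, Cntn2, Cntn3, Cntn4, Cntn5 and Cntn6 among the contactins, and Cntnap1, Cntnap2, Cntnap4 and Cntnap5a among the contactin-associated proteins. They were chosen by symbol from the 54838 Ensembl genes in the count files, with earlier results of these data known. All 10 belonged to the 16806 genes expressed above the filter (CPM, the count scaled to the library total, above 1 in at least 2 of them). Gene levels in CPM given below were also adjusted by TMM, a scaling factor estimated for each library. Ribosome-bound RNA was isolated by translating ribosome affinity purification (TRAP), in which an antibody pulls down EGFP-tagged L10a ribosomal subunits together with the messages they carry. The 10 libraries came from MC-TRAP mice (Drd2-Cre;Eef1a1LSL.eGFPL10a/+) of strain C57BL/6 (bred with C57BL/6J), males aged about 10 weeks, and were 5 dorsal and 5 ventral hippocampal preparations enriched for mossy cells (MCs), the glutamatergic neurons of the dentate hilus. Each library was a pool of 5 mice, so that the spread between libraries is a spread between pools. Dorsal and ventral parts were cut from the hippocampi of the same mice, but the labels do not say which pools share animals, so the groups were tested as independent and the replicate number was used as a block only in an alternative. Every mouse carried the same alleles and none was treated, and the comparison asks how the translated messages of dorsal and ventral MC-enriched populations differ. Because Cre was driven by Drd2, sparse interneurons of the CA fields and neurons of the ventral subiculum were tagged too, and the ventral subiculum was trimmed during dissection.

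Contactins are immunoglobulin-superfamily proteins held in the membrane by a lipid anchor, and contactin-associated proteins (Caspr) are transmembrane relatives of the neurexins. On myelinated axons, contactin and Caspr form the paranodal junction that flanks the node of Ranvier, and the pair made by TAG-1 and Caspr2 gathers potassium channels next to it. In the hippocampus the families also act in axon guidance and at synapses, and several members have been linked to autism and epilepsy.

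The labelled cell type was checked against marker lists. Of 8 MC markers 7 passed the expression filter, among them Gria2, whose dorsal level of 1143 ± 98.1 CPM compared with 651 ± 73.0 CPM in the ventral group (SD, n = 5 each), and Calb2, the calretinin gene of ventral MCs, at 65.2 ± 9.32 and 616 ± 94.6 CPM. The list went both ways, with 3 of the 7 dorsal-enriched (Gria2, Gria3 and Cyp26b1) and 2 ventral-enriched (Calb2 and Satb1, the latter at 270 ± 28.8 and 450.2 ± 33.3 CPM), and its sums of 1731 to 2005 and 1794 to 2102 CPM overlapped. The eighth, Csf2rb2, had 0 to 22 counts per library. Markers of other cells were present. The interneuron list summed to 3268 to 4363 CPM in dorsal and 3951 to 5191 CPM in ventral libraries, with 3 of 8 genes ventral-enriched and Gad2 alone at 2853 ± 453 and 3174 ± 407 CPM. Oligodendrocyte markers summed to 2644 to 3100 CPM against 962 to 1885 CPM, with 5 of 9 genes dorsal-enriched, and astrocyte markers to 1942 to 2220 CPM against 839 to 1420 CPM, with 3 of 7 dorsal-enriched and 1 ventral-enriched, and neither pair of ranges overlapped. Slc1a2 made up most of the astrocyte sum (1774 ± 80.5 and 870 ± 161 CPM), and the other 6 genes summed to 278 to 362 CPM against 241 to 393 CPM, which overlapped. Granule cell markers summed to 365 to 497 CPM against 359 to 502 CPM, with 1 of 4 genes enriched in each direction, and CA pyramidal cell markers to 215 to 306 CPM against 178 to 252 CPM, with 1 of 7 dorsal-enriched. Oligodendrocyte precursor markers reached at most 22.0 CPM and microglial and endothelial markers at most 61.3 CPM, with 0 of 2 and 1 of 7 genes enriched by edgeR's quasi-likelihood test, the latter C1qa, dorsal. DESeq2 gave the same calls there, and the 2 precursor genes were above an unadjusted p of 0.05. Total counts on genes ran from 11138676 to 20594364, at which 3 counts correspond to 0.146 to 0.269 CPM, a floor for counting error only. Read pairs outside annotated genes took 27.0 ± 5.09% of dorsal and 14.4 ± 3.0% of ventral libraries (SD, n = 5 each; two-sided exact permutation test, p = 0.00794, the smallest that 5 against 5 allow). The part of these differences in the results that follow was not tested.

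None of the 10 genes was called different between dorsal and ventral libraries at the thresholds used. To be called, a gene needed an adjusted p below 0.05 in edgeR's quasi-likelihood test and group means (CPM + 1) that differed by more than 0.58 on the log2 scale. Over all tested genes 13.2% were called dorsal-enriched (2217 genes) and 8.38% ventral-enriched (1408), a split that became 1838 dorsal and 2356 ventral genes when GC content and gene length were corrected for. Of the members 0 were called in either direction by edgeR, and 0 by DESeq2. At an unadjusted p below 0.05, which 40.8% of all tested genes reached, edgeR and DESeq2 each left 1 member, in both cases Cntnap5a. The CPM ranges of the 5 dorsal and 5 ventral libraries overlapped for all 10 members, whereas they were separate for 18.2% of tested genes. Fitted log2 fold changes of dorsal over ventral were positive for 3 members and negative for 7, with a median of -0.09 beside -0.01 for all tested genes. A p above the threshold does not show that levels were equal, so each difference is given below with its 95% confidence interval. The interval lay within ±0.58 for 4 members (Cntn1, Cntn4, Cntnap1 and Cntnap2) and passed 0.58 in at least 1 direction for the other 6. In bulk libraries, fewer cells of a type and less RNA per cell cannot be told apart.

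**Figure D1:**
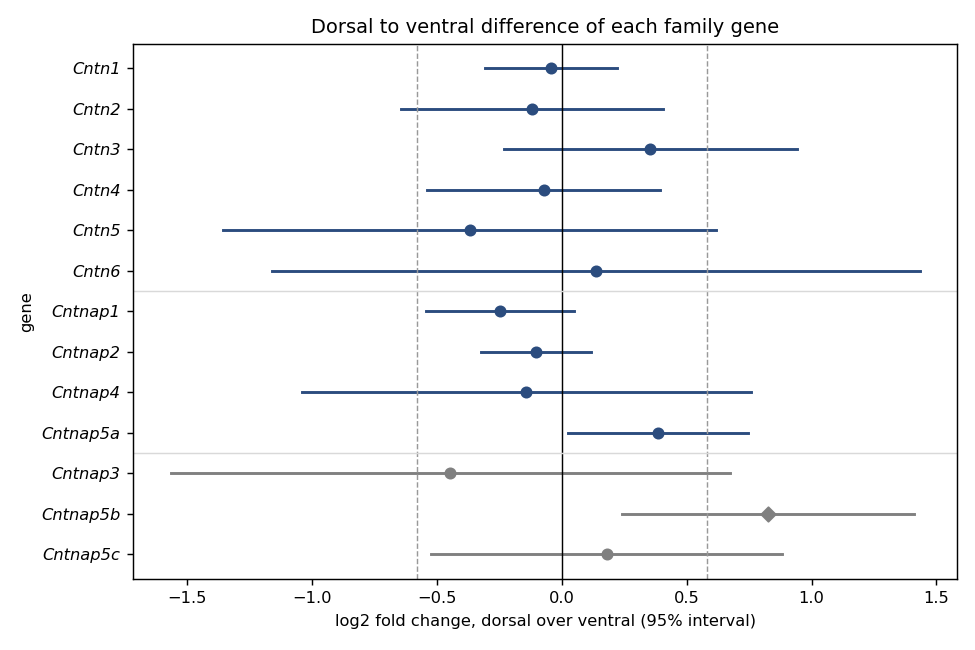
Log2 fold change of dorsal over ventral libraries (x axis) for each family gene (y axis), as fitted by edgeR, with its 95% interval as a line; blue marks the 10 members, grey the 3 other family genes, a diamond a called gene and dashed lines ±0.58. Intervals of the members include 0 except that of Cntnap5a (0.03 to 0.74), and they are widest for Cntn5, Cntn6 and Cntnap4.

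The 10 members spanned a wide range of levels. Levels between genes were compared as RPKM, CPM divided by the exonic length in kilobases. Cntn1 stood at 40.1 ± 5.65 RPKM (SD over 10 libraries), rank 1077 of 13549 tested protein-coding genes, and exceeded every other member in all 10 libraries without overlap of their ranges. Cntnap2 (10.8 ± 0.987 RPKM) and Cntnap1 (8.08 ± 1.24 RPKM) followed, and although their ranges overlapped, Cntnap2 was the higher of the pair in 10 of 10 libraries. Below a gap came Cntnap5a (4.05 ± 0.863), Cntn2 (3.18 ± 0.866) and Cntn3 (2.85 ± 0.969 RPKM), neighbours whose ranges overlapped and whose order held in 7 libraries for the first pair and 6 for the second. Cntn4 (1.83 ± 0.420 RPKM) overlapped with Cntn3 and lay below it in 8 libraries. The lowest were Cntnap4 (0.796 ± 0.328), Cntn6 (0.647 ± 0.417) and Cntn5 (0.587 ± 0.263 RPKM), which overlapped with one another. Cntnap4 was above Cntn6 in 7 libraries and Cntn6 above Cntn5 in 5, so that the last 2 had no order. The range of Cntn4 did not reach down to that of Cntnap4. It did overlap with that of Cntn6, whose highest value (1.39 RPKM, ventral library 1) exceeded the lowest of Cntn4 (1.29 RPKM, dorsal library 2).

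**Figure D2:**
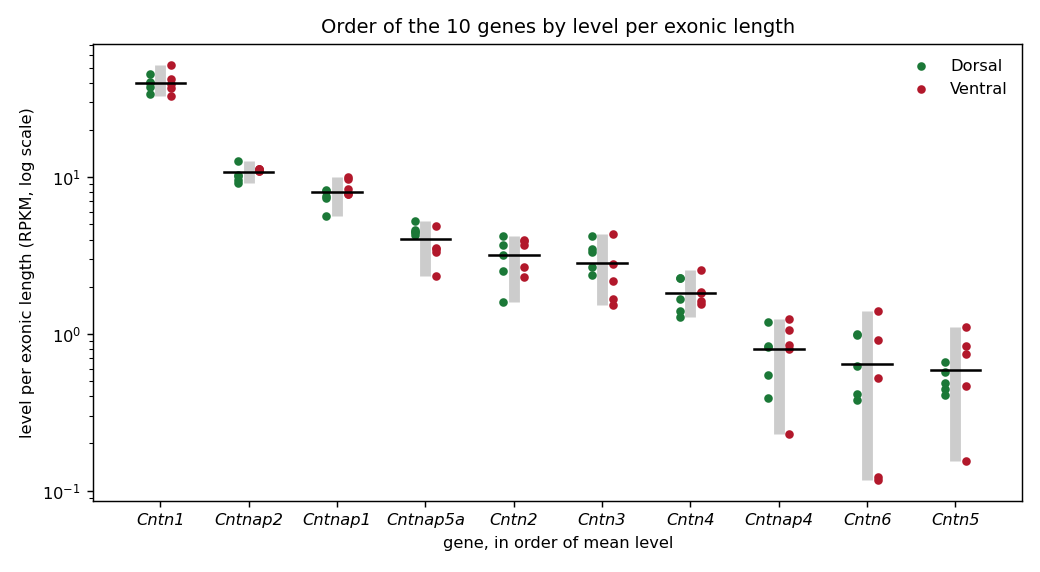
RPKM on a log axis for the 10 members in order of their mean over 10 libraries; points are libraries (green dorsal, red ventral), the grey bar spans the range and the black line is the mean. Cntn1 lies above all other members. The ranges of Cntnap4 and Cntn5 end below that of Cntn4, whereas the range of Cntn6 reaches into it.

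Within each family 1 gene made up the largest part of the signal in both regions. Of the summed RPKM of the 6 contactins, Cntn1 accounted for 80.9 ± 2.73% on the dorsal side and 81.9 ± 2.31% on the ventral side (SD, n = 5 each). The share of Cntnap2 in the 4 contactin-associated genes was 44.8 ± 4.88% in dorsal and 46.1 ± 3.36% in ventral libraries. The summed RPKM was 48.7 ± 4.10 and 49.7 ± 8.52 for the contactins and 23.1 ± 0.497 and 24.3 ± 1.66 for the contactin-associated genes. Dorsal and ventral ranges of these 4 quantities overlapped.

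Promoter letters are shown for the most abundant member and the pair at the bottom of the order, as the 250 bases before the most upstream RefSeq start in GRCm38.p6, on the strand of the gene, with each CG dinucleotide in capitals. RefSeq gave such windows for 7 of the 10 members and for 27025 genes in all, in which the median was 6 CG dinucleotides; CG reads the same on both strands and its copies cannot overlap. The windows are chr15:92050915-92051164 (plus strand) for Cntn1, chr6:104492794-104493043 (plus) for Cntn6 and chr9:10904776-10905025 (minus) for Cntn5.
Cntn1: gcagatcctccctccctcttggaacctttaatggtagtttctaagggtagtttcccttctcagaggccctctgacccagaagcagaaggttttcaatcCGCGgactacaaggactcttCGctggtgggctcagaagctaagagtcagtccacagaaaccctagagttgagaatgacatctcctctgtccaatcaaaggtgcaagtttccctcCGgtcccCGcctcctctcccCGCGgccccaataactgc
Cntn6: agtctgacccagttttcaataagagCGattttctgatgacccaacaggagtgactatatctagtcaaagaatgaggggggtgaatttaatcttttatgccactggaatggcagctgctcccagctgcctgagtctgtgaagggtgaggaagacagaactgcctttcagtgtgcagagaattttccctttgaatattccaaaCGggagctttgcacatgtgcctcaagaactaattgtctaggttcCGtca
Cntn5: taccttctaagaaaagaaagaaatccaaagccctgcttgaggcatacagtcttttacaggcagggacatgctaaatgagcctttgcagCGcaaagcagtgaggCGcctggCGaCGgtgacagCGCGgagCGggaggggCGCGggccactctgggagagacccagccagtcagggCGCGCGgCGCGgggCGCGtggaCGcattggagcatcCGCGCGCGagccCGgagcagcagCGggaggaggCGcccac
Cntn1 held 7 CG dinucleotides, a number reached by 46.6% of all windows. Cntn6 held 3, reached by 70.4%, and Cntn5 held 24, reached by 11.7%. The levels of Cntn6 and Cntn5 had no order, and a link between CG number and level was not tested. Among the other windows Cntnap2 had 13, Cntn2 10, Cntn4 2 and Cntn3 0, and 8.27% of all windows had none. The RefSeq starts of Cntn1 and Cntn5 coincide with the 5′ end of the GENCODE gene. Those of Cntn6, Cntn2 and Cntnap2 lie 254, 316 and 704 bases inside its span, and those of Cntn3 and Cntn4 108434 and 441105 bases inside. The windows of Cntn6, Cntn2, Cntnap2, Cntn3 and Cntn4 therefore lie wholly within the GENCODE gene, and only those of Cntn1 and Cntn5 lie upstream of it.

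Most members are very long genes. In GRCm38, Cntnap2 spans 2245 kb (chr6:45059357-47304213), Cntn5 1244 kb (chr9:9660891-10904775), Cntn4 1022 kb (chr6:105677660-106699310) and Cntnap5a 903 kb (chr1:115684756-116587323). Cntn3 (chr6:102162655-102573101), Cntn6 (chr6:104492790-104863406), Cntnap4 (chr8:112570043-112882717) and Cntn1 (chr15:92051165-92341967) span 291 to 410 kb, whereas Cntn2 (chr1:132509427-132543256) and Cntnap1 (chr11:101170523-101190724) span 33.8 and 20.2 kb. Cntn3, Cntn6 and Cntn4 lie in this order on chromosome 6, with 1920 and 814 kb between them. The exons counted make up 0.364% of the span of Cntn5 and 29.1% of that of Cntnap1. Of the exonic bases of Cntn5, 6.40% are shared with the transcript Gm32710, of Cntnap4 8.01% with Gm45904 and of Cntnap1 3.97% with Plekhh3, and whether strand was used in the counting was not given in the sources used here, so reads on these bases cannot be assigned with certainty.

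Cntn1 encodes contactin 1, the partner of Caspr at paranodes. Its level was 432, 375, 318, 382 and 355 CPM in dorsal libraries 1 to 5 and 492, 348, 371, 396 and 313 CPM in ventral libraries 1 to 5. The highest and the lowest of the 10 values were both ventral. The difference was -0.04 on the log2 scale (SE 0.12, 95% interval -0.31 to 0.22, edgeR adjusted p = 0.821), which leaves room for a dorsal level between 0.807 and 1.17 times the ventral one. Without ventral library 1 it was 0.06 and without dorsal library 3 it was 0.02. Corrected for GC content and length, it was -0.26 (edgeR adjusted p = 0.092), and with span added -0.30 (edgeR adjusted p = 0.0547).

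Its paranodal partner is encoded by Cntnap1, the gene of Caspr. Dorsal libraries gave 33.1, 48.1, 48.3, 43.1 and 44.6 CPM, and ventral libraries 45.9, 49.4, 46.1, 57.2 and 59.2 CPM. A dorsal library exceeded a ventral one in only 4 of the 25 possible pairs, and dorsal library 1 was the lowest of all. The log2 fold change of -0.25 (SE 0.14, interval -0.54 to 0.05) did not pass the test, with an edgeR p of 0.0944 and an adjusted p of 0.194.

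Cntn2 encodes TAG-1 (contactin 2), made by neurons and by myelinating glia and found next to the paranode. Levels of 14.9, 23.5, 39.3, 29.8 and 34.4 CPM in dorsal libraries stood beside 24.9, 21.4, 36.4, 34.2 and 37.1 CPM in ventral libraries. Both extremes were dorsal, and the group ranges largely coincided. The oligodendrocyte sum was higher in every dorsal library than in any ventral one, and its part in the Cntn2 values was not tested. The fold change of Cntn2 was -0.12 (SE 0.24, interval -0.64 to 0.41, edgeR adjusted p = 0.751) and turned to 0.04 without dorsal library 1.

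Cntnap2 encodes Caspr2, which joins TAG-1 in gathering Kv1 potassium channels and is a gene of autism and epilepsy. It was measured at 129, 105, 93.8, 104 and 98.8 CPM in dorsal and at 116, 111, 115, 113 and 116 CPM in ventral libraries. The ventral values lay very close together, with a coefficient of variation of 1.76% that is below the 2.44% expected from counting alone, whereas dorsal values varied by 12.9%. Dorsal library 1 was the highest of the 10, and the other 4 dorsal libraries fell below every ventral one. Its log2 fold change was -0.10 (SE 0.10, interval -0.32 to 0.12, edgeR adjusted p = 0.474). Corrected for GC content and length, it was -0.31 with an adjusted p of 0.0227, short of the fold threshold.

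Cntn3 and the next 3 genes encode mainly neuronal contactins, which share the receptor phosphatase PTPRG as a partner. Cntn3 stood at 28.2, 17.9, 16.1, 23.4 and 22.4 CPM in dorsal and 29.1, 11.2, 10.3, 18.9 and 14.6 CPM in ventral libraries. Ventral library 1 was the highest of all and ventral libraries 2 and 3 the lowest. A fold change of 0.35 (SE 0.27, interval -0.23 to 0.94, edgeR adjusted p = 0.350) became 0.64 without ventral library 1 (adjusted p = 0.0591) and 0.05 with the correction for GC content and length.

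Cntn4, a contactin with a role in the guidance of olfactory axons, was read at 11.9, 10.9, 19.2, 14.2 and 19.4 CPM in dorsal libraries. Ventral libraries gave 15.7, 21.8, 15.4, 13.1 and 13.7 CPM, and the highest value, in ventral library 2, stood beside the 2 lowest in dorsal libraries 1 and 2. The difference of -0.07 (SE 0.22, interval -0.54 to 0.39, edgeR adjusted p = 0.831) changed sign when any of these 3 libraries was left out, to between 0.01 and 0.07, and was -0.38 with the correction for GC content and length.

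Cntn5 encodes a contactin studied mainly in the auditory pathway. It was among the least abundant, at 3.01, 2.01, 1.84, 2.58 and 2.20 CPM in dorsal and 4.99, 0.704, 2.11, 3.35 and 3.78 CPM in ventral libraries. The 5 dorsal values fell between the ventral extremes, which were 90 counts in ventral library 1 and 8 counts in ventral library 2. Its fold change of -0.37 had a wide interval (SE 0.46, -1.36 to 0.62, edgeR adjusted p = 0.581), from -0.11 without ventral library 1 to -0.62 without ventral library 2.

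Cntn6, which encodes a contactin that can act as a ligand of Notch, varied most. Dorsal libraries had 6.49, 6.43, 2.45, 4.08 and 2.67 CPM and ventral libraries 9.04, 0.792, 0.760, 5.95 and 3.40 CPM. In ventral library 1, 163 counts were found, and in ventral libraries 2 and 3 only 9 each, an 11.9-fold range in CPM. Exact 95% Poisson intervals, which cover counting error only, were 7.71 to 10.5 CPM for the first and 0.362 to 1.5 and 0.348 to 1.44 CPM for the other two, so the ventral libraries differed by more than counting error. The fold change of 0.14 (SE 0.60, interval -1.16 to 1.43, edgeR adjusted p = 0.889) therefore allows a dorsal level from 0.447 to 2.70 times the ventral one. It ranged from 0.68 without ventral library 1 to -0.13 without ventral library 3.

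Cntnap4 encodes Caspr4, known from the presynaptic terminals of interneurons. Its values were 2.45, 3.44, 7.43, 5.29 and 5.19 CPM in dorsal and 7.77, 5.37, 1.44, 6.64 and 5.0 CPM in ventral libraries. Ventral library 1 was again the highest, ventral library 3 the lowest with 17 counts. The log2 fold change was -0.14 (SE 0.42, interval -1.04 to 0.76, edgeR adjusted p = 0.830) and turned to 0.04 without ventral library 1 and to 0.02 without dorsal library 1.

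Cntnap5a encodes one of the mouse Caspr5 proteins and came closest to a difference. Dorsal libraries lay between 46.6 and 57.1 CPM, with 57.1, 46.6, 48.9, 50.1 and 48.8 CPM, while ventral libraries gave 53.3, 37.9, 25.7, 38.7 and 36.7 CPM. Ventral libraries 2 to 5 were all below every dorsal library, and ventral library 1 was above 4 of the 5 dorsal ones. The means were 50.3 ± 4.02 and 38.4 ± 9.83 CPM (SD, n = 5 each), and the log2 fold change was 0.39 (SE 0.17, interval 0.03 to 0.74), with an edgeR p of 0.0371 and an adjusted p of 0.0991. Without ventral library 1 it was 0.53 with an adjusted p of 0.0223, still under the fold threshold. Corrected for GC content and length, the value was 0.05 with an adjusted p of 0.853.

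**Figure D3:**
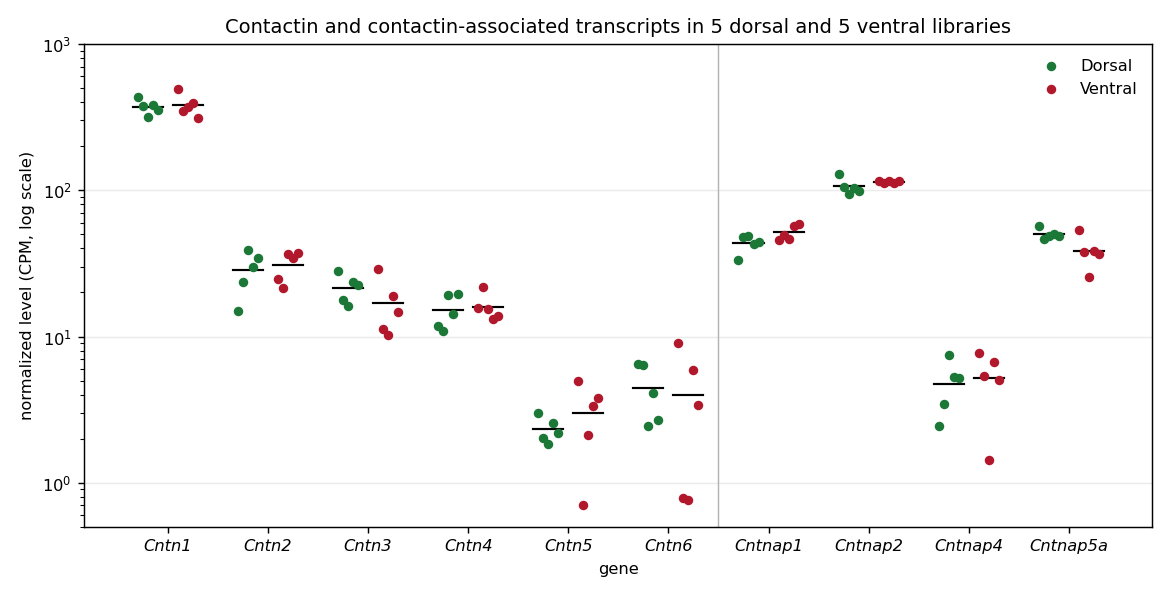
CPM on a log axis for the 10 members, one point per library (green dorsal, red ventral; libraries 1 to 5 from left to right in each cluster) and a black line at each group mean. The groups overlap for every gene, and 1 or 2 ventral libraries fall far below the rest for Cntn5, Cntn6 and Cntnap4.

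The spread was not shared evenly among libraries. Ventral library 1 held the highest value of 5 members (Cntn1, Cntn3, Cntn5, Cntn6 and Cntnap4) and the lowest of 0, and ventral library 3 the lowest of 4 (Cntn3, Cntn6, Cntnap4 and Cntnap5a). Median deviations from the gene means over the 10 members, in log2(CPM + 1), were 0.34 in ventral library 1, 0.20 in dorsal library 1 and between -0.15 and 0.17 in the other 8 libraries. The interneuron sum was 5191 CPM in ventral library 1, the highest of the 10, 5012 CPM in ventral library 2 and 4148 CPM in ventral library 3. The oligodendrocyte sum was 1129, 962 and 1885 CPM in these 3 libraries. How far these differences in marker levels entered the values was not tested. Within groups the coefficient of variation exceeded that expected from counting in 19 of 20 cases, Cntnap2 in ventral libraries being the exception, and it reached 89.0% for Cntn6 in ventral libraries against 22.5% from counting.

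**Figure D4:**
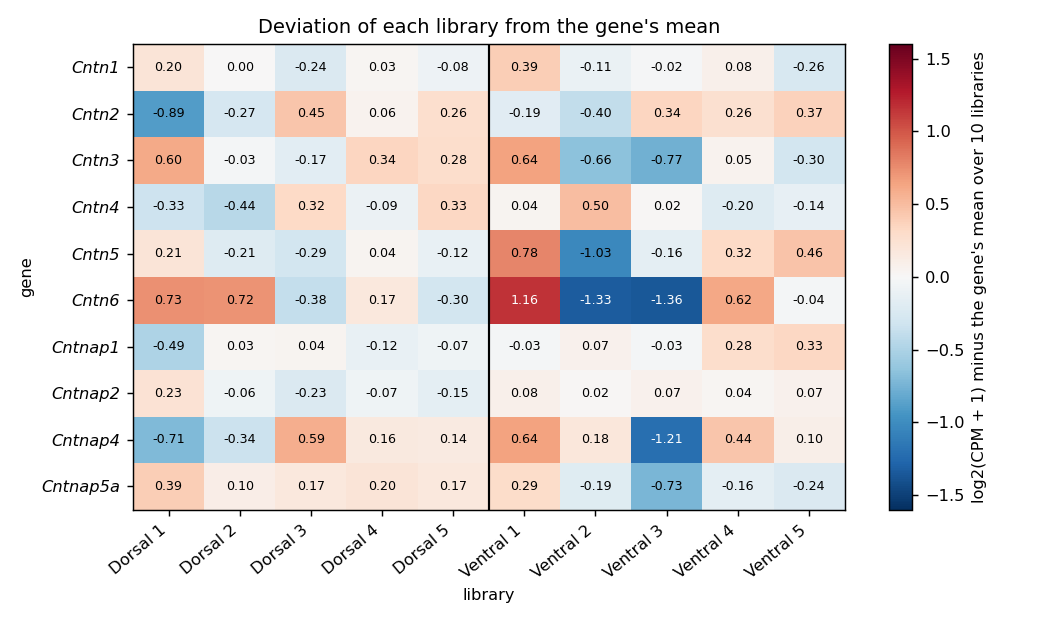
Log2(CPM + 1) of each member (rows) in each library (columns) minus the gene's mean over 10 libraries, from blue (below) to red (above), with the value in each cell. Ventral library 1 is above the mean for 8 of 10 genes, and the lowest cells are Cntn6 in ventral libraries 2 and 3 (-1.33 and -1.36) and Cntnap4 in ventral library 3 (-1.21).

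The 3 other Cntnap genes of the mouse were examined for comparison. Cntnap5b, a paralog of Cntnap5a, was dorsal-enriched, at 14.02, 8.32, 16.2, 11.1 and 11.5 CPM in dorsal against 7.27, 10.8, 4.22, 5.63 and 6.47 CPM in ventral libraries. Dorsal exceeded ventral in 24 of 25 pairs, and the fold change was 0.83 (SE 0.27, interval 0.24 to 1.41, edgeR adjusted p = 0.0363). The call was lost without any 1 of dorsal libraries 1, 3, 4 and 5 or ventral libraries 1, 3, 4 and 5 (adjusted p from 0.0557 to 0.0889), with the replicate block (0.0794) and with the correction for GC content and length (0.0873). Cntnap3 (4.56 ± 3.66 and 6.20 ± 2.29 CPM, fold change -0.45, interval -1.57 to 0.67, adjusted p = 0.553) and Cntnap5c (6.16 ± 2.76 and 5.43 ± 1.19 CPM, 0.18, -0.52 to 0.88, adjusted p = 0.713) did not pass the test. Whether Cntnap5b differed from Cntnap5a in its dorsal to ventral ratio was not tested.

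Genes whose pattern over the 10 libraries was most like that of Cntnap5a, the member with the lowest adjusted p, were Zfp458 (Pearson r = 0.978 of log2(CPM + 1)), Zdhhc14 (0.976) and Larp1b (0.972). These are the highest correlations with any tested gene and a description of 10 libraries. None of the 3 was called, with log2 fold changes of 0.62, 0.20 and 0.44 (edgeR adjusted p = 0.0774, 0.384 and 0.206).

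Genes that work with the families were counted in the same way. Of 45 genes in 4 lists (relatives, axonal domain partners, extracellular partners, and intracellular and processing partners), all tested, 9 (20%) were called dorsal and 1 (2.22%) ventral, beside 13.2% and 8.38% of all genes, and their median log2 fold change was 0.28. The count of dorsal-enriched genes was 8 or 9 without any 1 library, 7 with the correction for GC content and length and 19 without the fold threshold.

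In the L1 family, axonal adhesion molecules that bind contactins, 1 of 4 genes was called, with a list median of 0.18. Nfasc, whose glial form completes the paranodal junction, had 94.4, 102, 133, 116 and 123 CPM in dorsal and 70.5, 88.8, 54.5, 78.1 and 75.1 CPM in ventral libraries, which did not overlap. Its fold change was 0.63 (SE 0.14, edgeR adjusted p = 0.00545), and without dorsal library 3 (0.58) or ventral library 3 (0.54), or with GC content, length and span corrected for (0.56), it fell under the fold threshold. Nrcam rose in dorsal libraries by 0.48 (adjusted p = 0.00209) without reaching that threshold, and Chl1 (-0.11, adjusted p = 0.313) and L1cam (-0.34, adjusted p = 0.0560) did not pass.

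Among 23 axonal domain partners, the ankyrins, spectrins, band 4.1 proteins and channels that Caspr proteins hold in place, 3 were called dorsal and 1 ventral, and the median was 0.27. Kcna1, a Kv1 channel subunit clustered by Caspr2, had 95.3, 75.6, 88.1, 76.9 and 90.9 CPM in dorsal and 45.2, 61.1, 30.6, 44.3 and 43.3 CPM in ventral libraries. These groups did not overlap, and the fold change was 0.93 (SE 0.16, edgeR adjusted p = 0.00135). Adam23, a receptor of the LGI proteins, rose by 0.67 (SE 0.11, adjusted p = 0.00111), from 87.5 ± 9.86 to 140 ± 15.2 CPM, and Epb41, a band 4.1 protein, by 0.64 (SE 0.14, adjusted p = 0.00511), from 16.0 ± 0.846 to 25.01 ± 2.73 CPM (SD, n = 5 each). With the correction for GC content and length these became 0.45 and 0.31 and were no longer called, and Epb41 also lost its call without dorsal library 1, where the fitted change was 0.60 but the ratio of CPM + 1 was under the threshold. Sptbn4, a spectrin of the node, was called ventral-enriched with -2.38 (SE 0.76, edgeR adjusted p = 0.0324), but ventral library 2 stood at 134 CPM and the other ventral libraries at 6.67 to 14.2 CPM, beside 2.92 to 9.88 CPM in dorsal libraries. Without ventral library 2 the value was -0.62 (adjusted p = 0.172), and the call was also lost without any 1 of dorsal libraries 1, 3, 4 and 5 (adjusted p from 0.0589 to 0.0685). The 3 most abundant genes not called were Dlg2 (0.17, adjusted p = 0.204), Ank2 (0.29, adjusted p = 0.0151) and Sptbn1 (0.37, adjusted p = 0.0327).

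Among 14 extracellular partners edgeR and DESeq2 each called 4 dorsal and 0 ventral, and the median was 0.34. At an unadjusted p below 0.05, edgeR gave 1 gene with a higher ventral level, Ptprg. Tnr, a matrix glycoprotein that binds contactin 1, had 209, 191, 210, 188 and 195 CPM in dorsal and 88.2, 114, 143, 99.1 and 121 CPM in ventral libraries, without overlap, and a fold change of 0.81 (SE 0.12, edgeR adjusted p = 5.89e-04). Ncan, a matrix proteoglycan, rose by 0.61 (SE 0.11, adjusted p = 0.00142), and its groups did not overlap either. The oligodendrocyte sum and Slc1a2 were also higher in all dorsal libraries, and their part in these changes was not tested. Notch1, the receptor of the Cntn6 product, was at 6.48 ± 3.62 and 1.89 ± 1.18 CPM (fold change 1.77, SE 0.51, adjusted p = 0.0212), with overlapping groups, and lost the call with the replicate block (1.71, adjusted p = 0.0751), while Cntn6 itself was not called. Tnc was at 2.18 ± 1.51 and 0.541 ± 0.321 CPM (1.97, SE 0.66, adjusted p = 0.0393), with only 2 and 3 counts in ventral libraries 2 and 3, and lost the call without any 1 of dorsal libraries 1 and 4 and ventral libraries 1, 2, 3 and 5 (adjusted p from 0.0572 to 0.110). Ptprg, the shared partner of contactins 3 to 6, named here after its values were seen, was at 72.1 ± 3.94 and 92.2 ± 22.2 CPM in groups that did not overlap (-0.35, adjusted p = 0.0779). Of the abundant genes Rtn4 (0.12, adjusted p = 0.416), App (0.31, adjusted p = 0.102) and Aplp1 (0.33, adjusted p = 0.0868) did not pass.

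Of the 4 intracellular and processing partners, Adam10, a membrane protease, was dorsal-enriched at 107 ± 19.2 and 66.3 ± 20.3 CPM (0.68, SE 0.18, edgeR adjusted p = 0.0151). It fell under the fold threshold without dorsal library 2 (0.57) and lost the call with the correction for GC content and length (0.42, adjusted p = 0.0952). Cask, a scaffold that binds Caspr2, rose by 0.33 (adjusted p = 0.0291) without reaching the threshold, and Bace1 (0.17, adjusted p = 0.400) did not pass.

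**Figure D5:**
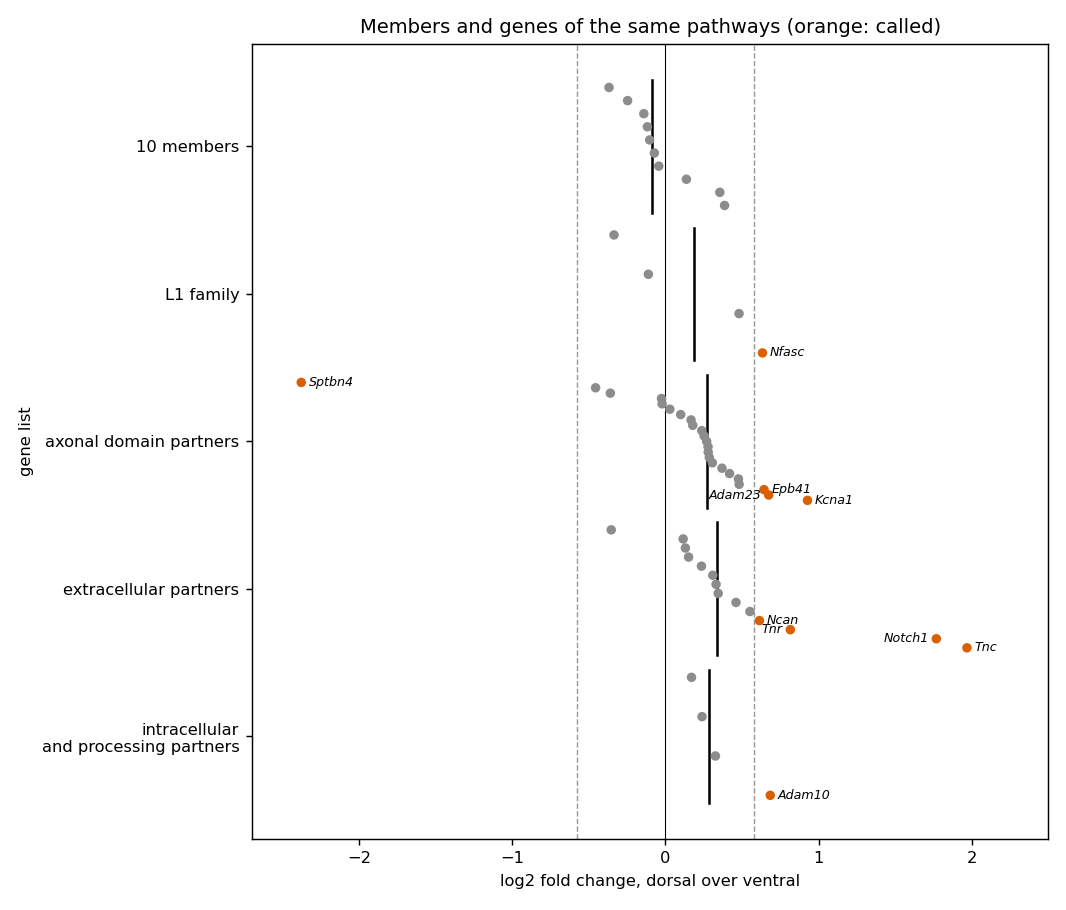
Log2 fold change of dorsal over ventral libraries (x axis) for the 10 members and the 4 lists of related genes (y axis); each point is a gene, orange where called and named, black lines are list medians and dashed lines ±0.58. The members have a median of -0.09 and no called gene, the lists medians between 0.18 and 0.34.

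Length of the gene was a further background for these values. Of 214 tested protein-coding genes spanning over 500 kb, 44 (20.6%) were called dorsal and 14 (6.54%) ventral, and the median of their log2 fold changes was 0.15. The 4 members over this length, Cntn4, Cntn5, Cntnap2 and Cntnap5a, are part of that count, with fold changes of -0.07, -0.37, -0.10 and 0.39.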

How the data were processed

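The authors amplified 500 pg of TRAP RNA per library, sequenced 50 bp read pairs, aligned them to GRCm38 with STAR 2.5.2b and counted them with HTSeq-count 0.7.2, and deposited the whole-number counts of each Ensembl gene, neither normalized nor filtered. The annotation release and the strand setting were not given in the sources used here. The reads carry no molecular identifiers, so intervals on counts cover counting error only. Groups and replicate numbers came from the sample titles. Duplicate libraries were not found: between any 2 of a group the chi-square of the counts was 4.36 to 45.1 times its degrees of freedom.

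From the counts, edgeR 4.0.16 (R 4.3.3) kept genes that passed CPM 1 in 2 or more libraries, scaled by TMM and compared the groups with the quasi-likelihood test and Benjamini-Hochberg adjustment over all 16806 genes. Its default dispersions (the edgeR 3 method) were used because those of edgeR 4 made more false calls on simulated data. Those of edgeR 4 did so again in each of 8 tables simulated later, where they also found more of the genes made to differ. Only 187 to 197 of the tested genes were made to differ there, fewer than were called in the data. The edgeR 4 dispersions, added after the data were seen, are an alternative. A call needed an adjusted p below 0.05 together with a difference above 0.58, in either direction, of log2(mean CPM + 1). Single-gene log2 fold changes are those of the fit, their SE is this value over the root of the F statistic, and 95% intervals use the t distribution with the fit's degrees of freedom. Standard deviations are over libraries, which are pools of 5 mice. Coordinates and exonic lengths were read from GENCODE's GRCm38 gene models, with a match for 54809 of 54838 identifiers, and promoter windows from RefSeq.

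The alternatives were other scalings (DESeq2's size factors, upper quartile, total counts), no or a stricter filter, DESeq2 1.42.0, the likelihood-ratio test, the fitted fold for the threshold, no fold threshold, the replicate block, corrections for GC content, length and span by smooth trends (mgcv 1.9.3), both together, mitochondrially encoded genes left out, and each library left out. The members and lists were chosen with earlier results of these data known. Named genes were the members, the 3 other Cntnap genes, every called gene of the lists and the 3 most abundant uncalled ones per list (1 of these is not reported here), the 3 genes most like the member with the lowest adjusted p, and marker genes. Hybridization, PCR and imaging experiments were not analysed here.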

Additional observations from a re-analysis of the deposited data

Results flagged for a closer look

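Among the 32 sets of 5 values examined (the 10 members and the 3 other Cntnap genes in each group, and 3 library measures), 1 library stood apart by Dixon's test, where chance alone marks about 1 set in 20. Cntnap3 was at 10.2 CPM in ventral library 2, beside 4.68 to 5.88 CPM in the other ventral libraries, and without that library its log2 fold change was -0.20 in place of -0.45. No set of values of the 10 members was marked.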

How the results depend on the processing

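Under each of 25 alternatives 0 members were called in either direction. The replicate block left 1946 dorsal-enriched and 1225 ventral-enriched genes of all tested; same-numbered libraries deviated from their group means with correlations of -0.02 to 0.04, and 1 of 5 matched its own number best, so the numbers were not taken to pair the samples. With the replicate block, Cntnap5b (adjusted p = 0.0794), Sptbn4 (0.0742) and Notch1 (0.0751) lost their calls and ventral-enriched pathway genes numbered 0. The GC and length correction moved the median of all genes from -0.01 to -0.14, and ventral-enriched genes numbered 2356 with it, 2269 with span added and 2139 with the block added. Ventral-enriched pathway genes, 1 in the main result, numbered 2 with the GC and length correction, 3 with span added, 3 without a fold threshold (dorsal-enriched 19), 0 by DESeq2, which gave Sptbn4 no adjusted p, 0 with edgeR 4 dispersions, which gave 2636 and 1655 calls over all genes, and 0 to 1 with a library left out. Over all genes, 2696 were dorsal-enriched and 2090 ventral-enriched without a fold threshold. Leaving out 1 library changed the counts over all genes to between 1725 and 2368 dorsal-enriched and between 987 and 1559 ventral-enriched.

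The direction of small differences was not stable. Cntn6 was -0.0709 with the GC and length correction, -0.0828 with span added, -0.0021 with edgeR 4 dispersions and between -0.126 and 0.678 with a library left out. Cntnap5c was -0.066 with the block and the GC and length correction together and between -0.0386 and 0.328 with a library left out. Leaving out a library gave -0.105 to 0.0594 for Cntn1, -0.258 to 0.045 for Cntn2, -0.167 to 0.0654 for Cntn4 and -0.380 to 0.041 for Cntnap4. Cntn3, Cntn5, Cntnap1, Cntnap2 and Cntnap5a kept their direction under all 25. Genes below about 5 CPM had 8 to 163 counts per library, which limits Cntn5, Cntn6 and Cntnap4.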
